A study of Frankliniella occidentalis and Frankliniella intonsa with 9 samples.

Results

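Male and female antennae of the western flower thrips, Frankliniella occidentalis, were compared function by function. A function is the sum of the transcript levels of all assembled genes that share a Swiss-Prot protein description, so that a protein split over several assembled pieces counts as 1 entry. Of 48889 assembled genes, 16468 had such a description, and 2032 of these were dropped because the best match came from a bacterium (1322), a plant (540), a microsporidian (159) or an alga (11). The 9228 remaining genes that were above 0 in an F. occidentalis library made 4947 functions, 2376 from a single assembled gene and 2571 from 2 or more (at most 31). The 6 libraries used were 3 of female and 3 of male antennae, all from adults 1 day old. The series of 9 libraries also holds 3 of female Frankliniella intonsa antennae, which stay out of the comparison of the sexes except in an alternative fit. Levels are in TPM, a relative abundance adjusted for transcript length, and the cDNA was PCR-amplified from small amounts of total RNA. TPM keeps no read numbers, and sequencing depth is therefore unknown. Whether each replicate was a separate set of insects is not stated in the labels, and the p-values then describe only how far these samples spread, part of which may be technical.

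Thrips are haplodiploid: males develop from unfertilized eggs and females from fertilized ones, and adults of both sexes respond to odours, including an aggregation pheromone that males release. The antenna carries the olfactory neurons with their receptors, supporting cells that secrete odorant-binding and chemosensory proteins, and also muscle, tracheae, hemolymph and blood cells. Yolk precursors are made mainly in the fat body of insect females, circulate in the hemolymph and are taken up by the ovary.

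The 6 libraries summed to between 935518 and 960131 TPM over all assembled genes. The functions took 37.4%, 39.2% and 42.5% of this in female libraries 1, 2 and 3, and 38.3%, 30.0% and 28.3% in male libraries 1, 2 and 3. Functions are no independent replicates, and Spearman correlations across them ran from 0.946 to 0.961 between females, 0.888 to 0.921 between males and 0.866 to 0.927 between the sexes. The median spread of a function was 0.272 (SD of log2 of TPM + 1) among females and 0.412 among males. The odorant receptor coreceptor, a marker of insect olfactory neurons, was above 0 in all 6 libraries, as were the 3 functions of the odorant-binding and chemosensory list, a family that other insect tissues also express.

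Of 4567 functions with at least 1 TPM in 3 or more libraries, 242 (5.3%) passed an adjusted p of 0.05 (limma-trend, Benjamini-Hochberg), and 748 had an unadjusted p under 0.05. Functions higher in males numbered 115 (2.52%) and functions lower in males 127 (2.78%). A function below 1 TPM in every library of 1 sex passed the filter only through the other sex, so its direction was fixed in advance. It was so, among others, for stearoyl-CoA desaturase 5, cytochrome P450 4X1, Vitellogenin-3, cyclin-B3, sterol O-acyltransferase 1, DHX34 and histone deacetylase 1. The libraries of the sexes did not overlap in 906 functions (19.8%), which held 241 of the 242. The direction went with abundance: the functions lower in males had a median level of 197 TPM over the 6 libraries and 81 of them were at 100 TPM or more, whereas those higher in males had a median of 7.43 TPM and 3 were at 100 TPM or more. The median of all functions tested was 11.7 TPM. The median log2 difference of all functions was 0.07 (males minus females, on log2 of TPM + 1, a scale that understates the change of low functions). It became −0.02 after quantile normalization, where 46 functions were higher and 86 lower, and 0.40 after rescaling the functions to an equal total in each library, where 257 were higher and 72 lower. The total of 242 became 119 without female library 1, 147 without female library 2 and 427 without male library 3.

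**Figure D1:**
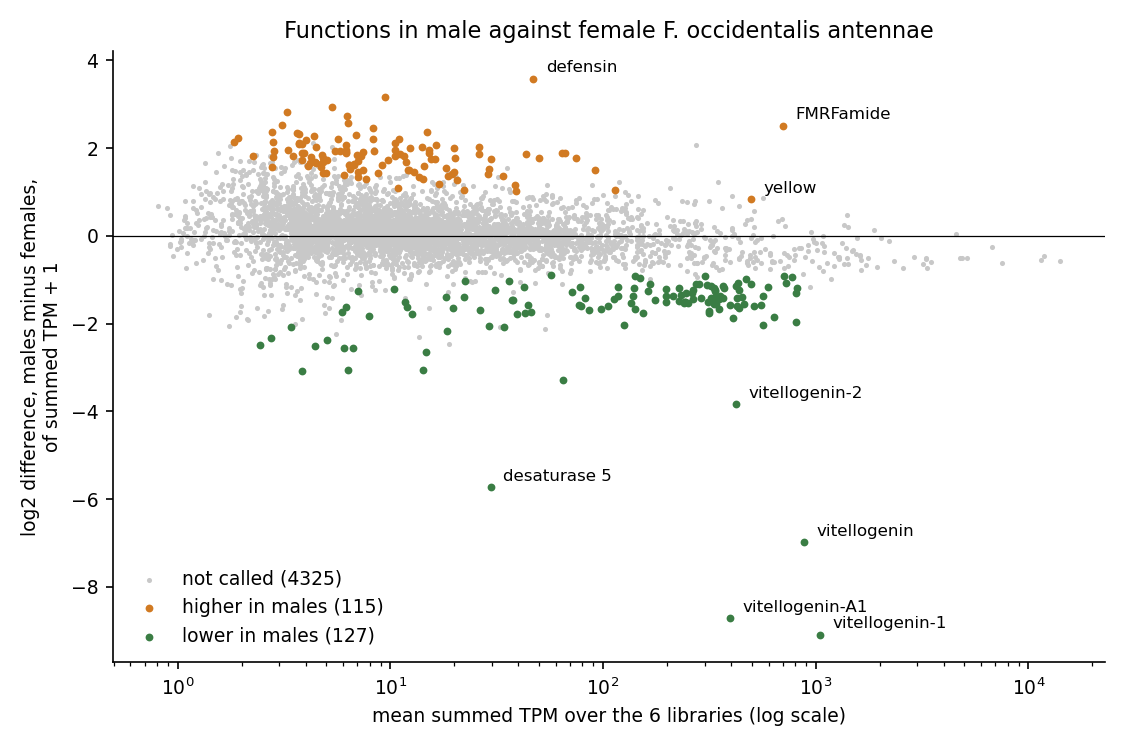
Each point is a function, at its mean summed TPM over the 6 libraries (x axis, log scale) and its log2 difference of summed TPM + 1, males minus females (y axis). The 127 functions lower in males (green) reach −9.09 and lie mostly at high levels, and most of the 115 higher in males (orange) lie at low levels, with FMRFamide-related neuropeptides and protein yellow among the exceptions.

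Yolk precursors showed the widest sex difference. Vitellogenin-1, the description with the most TPM among them, was at 2315, 2538 and 1411 TPM in female libraries 1, 2 and 3, and at 4.01, 2.22 and 2.20 TPM in male libraries 1, 2 and 3 (values below are in the same order). Its log2 difference was −9.09 ± 0.28 (SE, n = 3 per sex; adjusted p = 1.69e-09, limma-trend). Vitellogenin-A1 was at 711, 1071 and 579 TPM in females and 1.45, 0.34 and 0.85 TPM in males, a log2 difference of −8.71. The description Vitellogenin had 1406, 2512 and 1327 TPM in females and 11.8, 12.2 and 12.9 TPM in males, a log2 difference of −6.98. In all 3 descriptions each female library lay above every male library, and every tested assembled gene was called lower in males: 9 of 9, 5 of 5 and 8 of 8. Vitellogenin-2 behaved less uniformly. It held 804, 973 and 596 TPM in females and 44.4, 70.3 and 48.9 TPM in males (log2 difference −3.83), and most of the male level came from 1 assembled gene at 48.4 ± 6.80 TPM in males against 90.0 ± 23.4 TPM in females (SD, n = 3 each; adjusted p = 0.139, limma-trend over assembled genes), while the other 3 tested were below 1 TPM in males. Vitellogenin-3, a low description, had a log2 difference of −2.48. Vitellogenin-6 was not called, at 5.31, 2.85 and 2.69 TPM in females and 3.16, 27.5 and 3.79 TPM in males, where male library 2 stood above all others.

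Together the vitellogenin descriptions held 5247, 7103 and 3919 TPM in females and 64.9, 113 and 68.6 TPM in males. No other yolk or hemolymph function tested was called lower in males. Apolipophorins, which carry lipid in hemolymph, were at 19.8, 12.85 and 16.1 TPM in females and 9.87, 16.9 and 6.45 TPM in males, and the storage protein hexamerin at 10.8, 3.11 and 2.12 TPM against 1.86, 9.15 and 1.15 TPM. Both overlapped between the sexes and were not called. Of the 11 yolk and hemolymph functions tested, 5 were lower in males, all vitellogenins, and 1 was higher, ferritin-2 heavy chain, an iron-storage subunit at 1.09, 3.28 and 3 TPM in females and 14.1, 6.13 and 14.2 TPM in males. The ferritin call was lost without female library 1 or male library 1. The list summed to 4438 to 7634 TPM in females and 479 to 669 TPM in males. Ovary and germline functions, of which 11 were tested, had 0 called, against 5.3% of all functions tested, and a median log2 difference of −0.01. In bulk tissue, fewer cells of a type and less RNA per cell cannot be told apart, and whether any vitellogenin RNA came from outside the antennae was not tested.

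**Figure D2:**
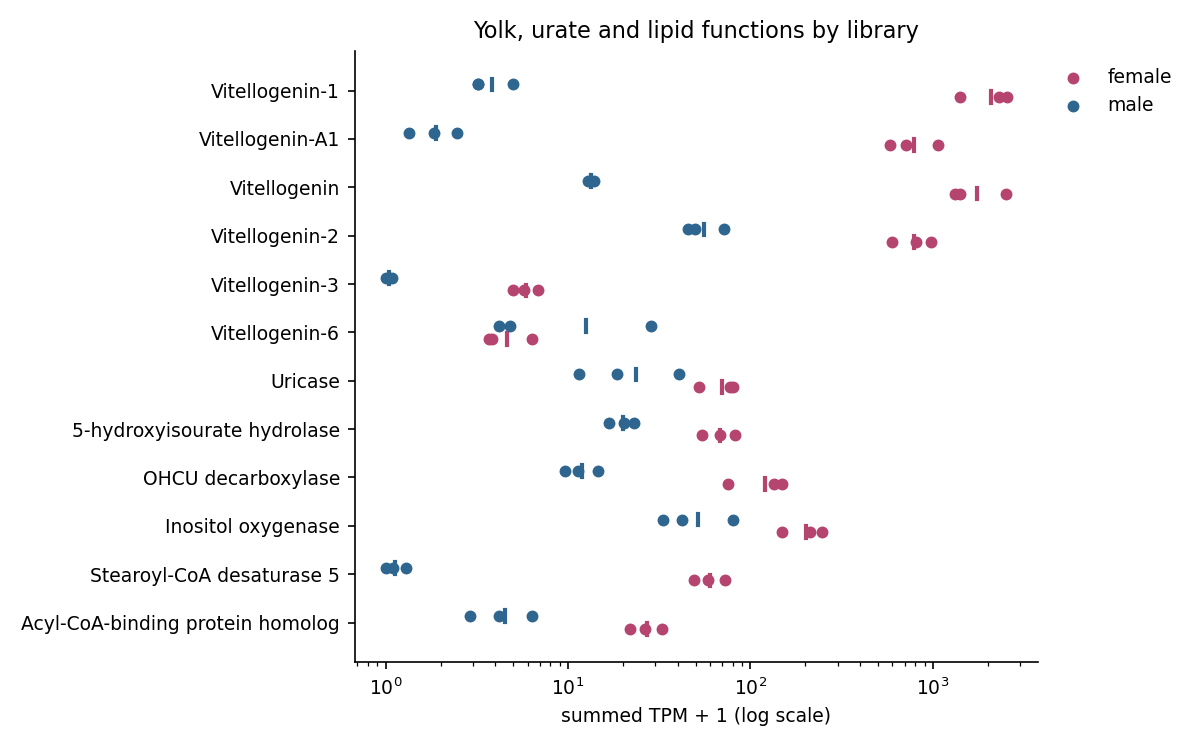
Summed TPM + 1 (x axis, log scale) of 12 yolk, urate, inositol and lipid functions in each of 3 female and 3 male libraries (points), with the mean of each sex as a short bar. The sexes do not overlap in any row except Vitellogenin-6, and the first 3 vitellogenin rows stand furthest apart. OHCU stands for 2-oxo-4-hydroxy-4-carboxy-5-ureidoimidazoline.

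The enzymes that break urate down were lower in males. Urate is the purine end product that most insects excrete, and uricase, 5-hydroxyisourate hydrolase and 2-oxo-4-hydroxy-4-carboxy-5-ureidoimidazoline (OHCU) decarboxylase turn it stepwise into allantoin. Uricase was at 79.5, 75.9 and 51.2 TPM in females and 39.5, 10.5 and 17.6 TPM in males (log2 difference −1.74 ± 0.39 SE, n = 3 per sex; adjusted p = 0.0210, limma-trend). 5-hydroxyisourate hydrolase was at 80.8, 66.9 and 53.4 TPM in females and 21.9, 19.3 and 15.7 TPM in males (log2 difference −1.76, adjusted p = 0.00364, limma-trend). OHCU decarboxylase was at 133, 148 and 74.2 TPM in females and 10.4, 8.66 and 13.5 TPM in males (log2 difference −3.29, adjusted p = 8.18e-05, limma-trend). All 3 steps had sexes that did not overlap, and their sum averaged 255 ± 65.6 TPM in females against 52.4 ± 17.3 TPM in males (SD, n = 3 per sex). The uricase call was lost without female library 1 or male library 2, after which its adjusted p was above 0.05. It was also lost after quantile normalization, after rescaling, without the filter and without the trend. The other 2 steps kept their calls in these fits and without any 1 library. Guanine deaminase, which makes xanthine from guanine, was not called at 23.0, 27.7 and 30.2 TPM in females and 27.6, 23.95 and 21.7 TPM in males. A separate description, probable guanine deaminase, rested on a non-animal match and fell from 11.2, 21.7 and 22.4 TPM to 4.58, 3.10 and 8.79 TPM, a call lost in 4 of the 6 fits that left out a library. Both were named after their values were seen. Xanthine dehydrogenase, which makes urate, was not called, at 30.9, 39.7 and 44 TPM in females and 48.4, 44.1 and 39.7 TPM in males.

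Inositol oxygenase, the enzyme that opens the ring of myo-inositol, was at 210, 247 and 147 TPM in females and 78.8, 32.1 and 41.0 TPM in males. Its log2 difference was −2.04 ± 0.32 (SE, n = 3 per sex; adjusted p = 0.00394, limma-trend) and the sexes did not overlap. It completed the 4 of 14 polyol, inositol and urate functions that were lower in males, with 0 higher. After quantile normalization and after rescaling, 3 of the list were lower. Aldose reductase, of the same list, was not called at 307, 303 and 237 TPM against 208, 153 and 175 TPM, and the trehalose transporter Tret1 was not called at 224 to 279 TPM in females and 251 to 323 TPM in males. Arginase-2, which splits arginine into ornithine and urea, was at 16.1, 10.4 and 9.60 TPM in females and 1.75, 0 and 0.31 TPM in males (log2 difference −3.05).

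Lipid enzymes moved in both directions. Stearoyl-CoA desaturase 5, of a family that puts a double bond into fatty acyl chains, was at 57.8, 48.1 and 71.9 TPM in females and 0.29, 0 and 0.10 TPM in males (log2 difference −5.73 ± 0.30 SE, n = 3 per sex; adjusted p = 2.28e-07, limma-trend). It was the largest fall outside the vitellogenins. It rested on a single assembled gene and passed the filter only through the female libraries. Acyl-CoA Delta(11) desaturase, the more abundant desaturase, was not called and overlapped (305 to 513 TPM in females, 346 to 378 TPM in males). An acyl-CoA-binding protein homolog, a carrier of fatty acyl-CoA, fell from 26.03 ± 5.44 to 3.49 ± 1.75 TPM (SD, n = 3 each), while the abundant acyl-CoA-binding protein stood at 1455 to 1851 TPM in females and 1374 to 1720 TPM in males and was not called. Sterol O-acyltransferase 1, which esterifies sterols, was at 7.63, 4.07 and 4.11 TPM in females and 0.37, 0 and 0.26 TPM in males. Of 74 lipid functions, 5 were lower and 4 higher, against 2.78% and 2.52% of all functions tested. The list's median log2 difference was 0.03. Of the 4 higher, fatty acyl-CoA synthetase B and a probable very-long-chain (3R)-3-hydroxyacyl-CoA dehydratase rested on non-animal matches, which are described further on.

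Cytochrome P450 4X1, of the heme enzymes that oxidize lipids and foreign compounds, was at 9.57, 6.03 and 7.54 TPM in females and 0.04, 0 and 0 TPM in males. It was the 1 of 37 P450 functions called lower, and probable cytochrome P450 4d14, at 15.2, 7.33 and 7.71 TPM in females and 24.9, 46.4 and 18.3 TPM in males, the 1 called higher. The 4d14 call was lost in 4 of the 6 fits that left out a library and after quantile normalization, where 0 P450 functions were higher and 2 lower. Of the 37, 17 had a positive difference. The counts called are near the shares over all functions tested, 2.78% lower and 2.52% higher, so the P450 list does not stand out. Chymotrypsin-2, a digestive protease, was at 41.1, 30.4 and 7.5 TPM in females and 3.16, 0.12 and 3.13 TPM in males. It was 1 of 57 protease functions and the only one called, against 5.3% of all functions tested. Trypsin-4, another digestive protease and a gut marker, was not called but also had its highest level in female library 1 (101, 36.0 and 15.3 TPM in females, 6.65, 1.86 and 35.8 TPM in males). The lectizyme description, also a midgut protease and named with Trypsin-4 after values were seen, read 163, 72.4 and 19.95 TPM in females and 10.1, 4.45 and 49.7 TPM in males. Whether gut material bears on the chymotrypsin call was not tested, and that call was lost without female library 1. It was also lost without the filter, after quantile normalization and after rescaling, and under both of these scalings 0 protease functions were called. Copine-8, a calcium-dependent membrane-binding protein, was at 16.4, 11.2 and 8.39 TPM in females and 2.54, 0.21 and 1.25 TPM in males.

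Among the remaining large falls, G2/mitotic-specific cyclin-B3, which drives cell division, was at 19.0, 7.22 and 2.37 TPM in females and 0.67, 0.61 and 0.45 TPM in males. Alcohol dehydrogenase [NADP(+)] B was at 5.58, 14.9 and 11.95 TPM in females and 0, 3.28 and 0.58 TPM in males. The mitochondrial 10-formyltetrahydrofolate dehydrogenase, an enzyme of folate metabolism, was at 10.3, 4.94 and 8.88 TPM in females and 2.55, 0 and 0 TPM in males. Each of these 3 calls was lost without at least 1 library. The chaperone heat shock 70 kDa protein 1B was at 8.78, 6.14 and 3.37 TPM in females and 0.93, 0 and 1.15 TPM in males. It was the 1 called function among 69 heat shock proteins and chaperones, against 5.3% of all functions tested. That call was lost without female library 1, female library 2 or male library 2, and after rescaling.

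Cytosolic ribosomal proteins made up 68 of the 127 functions lower in males. The ribosome is built from a large (60S) and a small (40S) subunit and translates mRNA. Of 114 ribosomal descriptions above 0, 90 passed the filter. Of these, 14 took over 50% of their TPM from assembled genes with a non-animal match or with the butterfly Papilio xuthus in the second annotation, and are described further on. Among the 76 others, 68 were lower in males and 1 was higher. Their median log2 difference was −1.38. It was −0.99 with 31 lower after quantile normalization and −1.05 with 36 lower after rescaling, where the median of all functions shifted to −0.02 and 0.40. Without female library 1, 42 of the 76 were lower. The 44 large-subunit proteins had 40 lower and 0 higher, and the 32 small-subunit proteins 28 lower and 1 higher. Their medians were −1.38 and −1.37.

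Among the large-subunit proteins, 60S ribosomal protein L8 was at 1169, 956 and 615 TPM in females and 213, 192 and 241 TPM in males (log2 difference −2.04 ± 0.26 SE, n = 3 per sex; adjusted p = 0.00189, limma-trend). The stalk proteins 60S acidic ribosomal protein P2 and P1, which recruit elongation factors, were at 1721, 1317 and 866 TPM against 327, 281 and 356 TPM, and at 1281, 1002 and 727 TPM against 282, 230 and 309 TPM. 60S ribosomal protein L18 was at 757, 659 and 502 TPM in females and 182, 133 and 205 TPM in males. The sexes did not overlap in any of these proteins. Ubiquitin-40S ribosomal protein S27a, a fusion from which free ubiquitin is also cut, had the highest mean level of the ribosomal functions together with ubiquitin-60S ribosomal protein L40. S27a was at 1381, 1113 and 918 TPM in females and 503, 443 and 526 TPM in males and was called, except without female library 1 and after both other scalings. L40 was at 1149, 1252 and 948 TPM against 551, 528 and 784 TPM and was not called (adjusted p = 0.0607, limma-trend). 60S ribosomal protein L29 overlapped between the sexes, at 424 to 528 TPM in females and 366 to 776 TPM in males.

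Summed over the 76 proteins, females held 47887, 40654 and 30335 TPM and males 15309, 14796 and 18095 TPM, or 39626 ± 8821 TPM and 16067 ± 1775 TPM (SD, n = 3 each). Female library 3 was the lowest of the females in 74 of the 76, against 21.6% of all functions tested, and it was also the lowest in 44 of the 59 functions lower in males that were not ribosomal. Mitochondrial ribosomal proteins, which serve the separate ribosome of that organelle, had 0 of 62 called, against 5.3% of all functions tested. Their median log2 difference was −0.19.

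**Figure D3:**
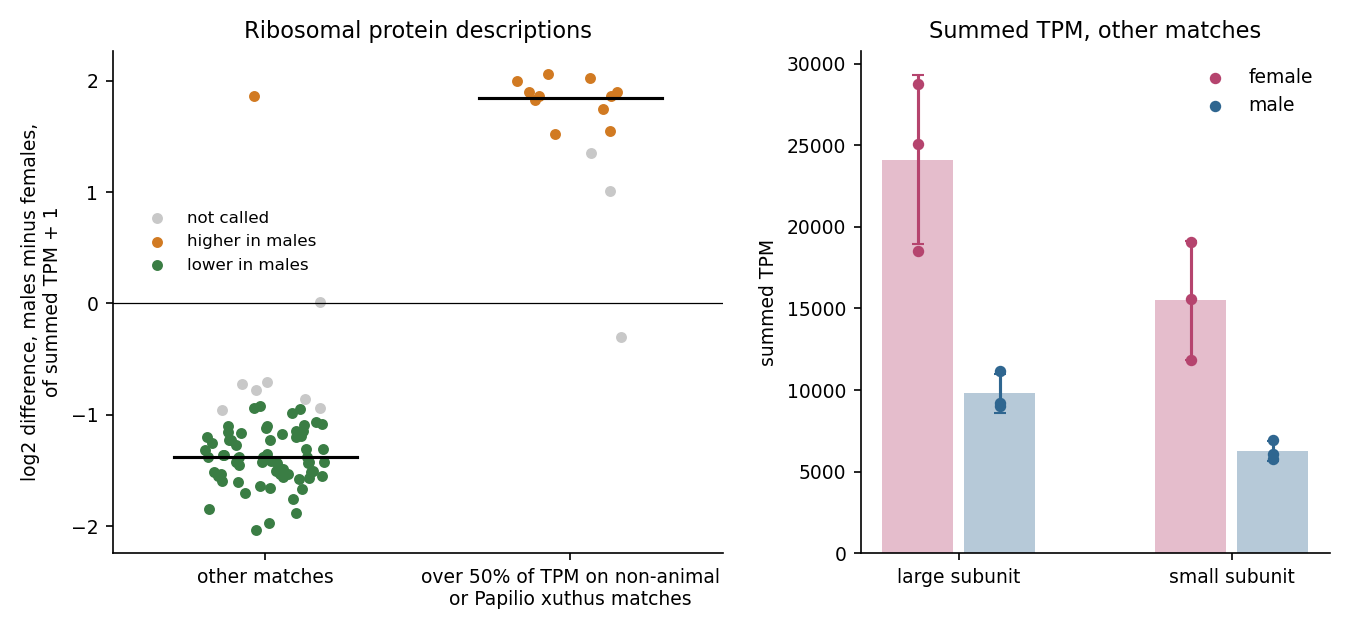
Left, the log2 difference of summed TPM + 1 (males minus females) of each ribosomal protein description, split by whether over 50% of its TPM came from non-animal or Papilio xuthus matches, with the median of each class as a line: −1.38 over 76 descriptions and 1.84 over 14. Right, summed TPM of the large- and small-subunit proteins of the first class in each library (points), with the mean (bars) and SD (lines) of 3 libraries per sex; no male library reaches a female one.

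The remaining machinery of translation moved in part. Elongation factor 1-gamma was at 162, 122 and 108 TPM in females and 43.97, 30.1 and 46.7 TPM in males (log2 difference −1.68), and elongation factors 1-delta and 1-beta' were lower by −1.59 and −1.20 on the log2 scale. These subunits reload the elongation factor that brings tRNA to the ribosome. The 1-beta' call was lost without female library 1 or male library 2 and after rescaling, while the 1-gamma and 1-delta calls were kept in these fits. Elongation factor 1-alpha 2, a form of the carrier itself, was not called at 812, 780 and 685 TPM in females and 624, 399 and 355 TPM in males. In all, 3 of 47 translation factors were lower and 2 higher, against 2.78% and 2.52% of all functions tested. Their median of −0.17 turned positive, 0.15, after rescaling. Both higher ones were low in females: eukaryotic translation initiation factor 4E-3 was at 0.88, 0.62 and 1.15 TPM in females and 7.46, 2.61 and 8.24 TPM in males, and a release factor GTP-binding subunit rested on non-animal matches. The 4E-3 call was lost in 5 of the 6 fits that left out a library, and 0 translation factors were higher after quantile normalization. Vigilin, an RNA-binding protein that in yeast associates with ribosomes, was named after its values were seen and fell from 70.8, 63.0 and 34.8 TPM to 11.4, 14.8 and 10.5 TPM.

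Some proteins at the gate of the secretory pathway were lower in males, in a list assembled after its members' values had been seen. New secreted proteins enter the endoplasmic reticulum through the Sec61 channel, beside which the translocon-associated proteins and TRAM sit. Of 34 functions in this list, 7 were lower and 0 higher in males, against 2.78% and 2.52% of all functions tested. They were the translocon-associated subunits alpha, beta, gamma and delta, translocating chain-associated membrane protein 1, Sec61 subunit alpha isoform 2 and stress-associated endoplasmic reticulum protein 2, whose call alone among the last 3 was lost without female library 1, female library 2 or male library 2. The gamma subunit was at 181, 166.5 and 104 TPM in females and 44.6, 48.6 and 43.1 TPM in males (log2 difference −1.67 ± 0.25 SE, n = 3 per sex; adjusted p = 0.00394, limma-trend). Sec61 subunit alpha isoform 2 was at 109, 113 and 135 TPM against 55.1, 38.0 and 40.9 TPM. Sec61 subunit beta, another part of the channel, differed by −0.22 and was not called (adjusted p = 0.700, limma-trend). The list's median was −0.30, and 0.01 after rescaling, where 6 members were lower and 1 was higher. Because its members were chosen with their values known, the list's counts are a description and no test of the pathway.

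On the male side, FMRFamide-related neuropeptides stood out by level. This precursor is cut into short amidated peptides that act on muscle and neurons. It was at 240, 142 and 260 TPM in females and 1152, 1361 and 1060 TPM in males, and every male library was above every female library. Its log2 difference was 2.51 ± 0.26 (SE, n = 3 per sex; adjusted p = 0.000306, limma-trend). Both of its assembled genes were called higher, and the call was kept without any 1 library. Both genes matched a crayfish protein in Swiss-Prot and named Papilio xuthus in the second annotation. The other neuropeptide functions were not called. Myosuppressin, a peptide that quiets visceral muscle, was at 74.8, 51.7 and 53.9 TPM in females and 263, 221 and 47.8 TPM in males, so that male library 3 lay below all the females. Allatotropin and diuretic hormone class 2 had the same shape, with male library 3 at 11.95 and 13.2 TPM and male libraries 1 and 2 at 40.7 to 55.6 TPM. Of 11 neuropeptide and receptor functions 10 had a positive difference, with a median of 0.91 against 0.07 over all functions tested.

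Functions of the ion channel and synapse list mostly had positive differences, but few calls. The list's sum overlapped between the sexes, at 1329, 1431 and 1659 TPM in females and 1903, 1561 and 1254 TPM in males. Of 54 ion channel and synapse functions, 40 had a positive difference, and the median was 0.56, against 0.07 over all functions tested. Of the 54, 1 was called higher, against 2.52% of all functions. That one, glutamate receptor 1, an excitatory transmitter receptor, was at 3.24, 6.40 and 3.01 TPM in females and 21.5, 27.7 and 7.38 TPM in males (log2 difference 1.81, adjusted p = 0.0311, limma-trend), and its call was lost in 4 of the 6 fits that left out a library. The next functions are outside that list and do not add to its count. The sodium-dependent dopamine transporter, which returns dopamine to the neuron, was at 1.58, 0 and 0 TPM in females and 5.94, 15.1 and 9.41 TPM in males (log2 difference 2.94, adjusted p = 0.00456, limma-trend). Another 2 were picked after their values were seen. Endophilin-A, which recycles synaptic vesicles, rose from 14.3, 18.9 and 13.1 TPM to 46.3, 39.9 and 39.9 TPM. The sodium/potassium-transporting ATPase subunit alpha, which sets the ion gradients of cells in general, rose from 56.5, 89.6 and 75.4 TPM to 172, 171 and 118 TPM. The ATPase call was lost in 4 of the 6 fits that left out a library, and the endophilin-A and dopamine transporter calls in 0. The muscle list had 1 of 21 called, against 5.3% of all functions tested, and a median of −0.33. Its abundant members overlapped: actin of indirect flight muscle was at 14120, 13395 and 22020 TPM in females and 17293, 7976 and 9349 TPM in males.

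Among chemosensory functions, calls came only from the sensory neuron membrane protein and CD36 list. Ejaculatory bulb-specific protein 3, the Swiss-Prot name under which many insect chemosensory proteins fall, was at 4842, 3704 and 4861 TPM in females and 6078, 4598 and 3340 TPM in males. General odorant-binding protein 70 was at 16.95, 16.0 and 17.9 TPM in females and 17.5, 20.7 and 18.6 TPM in males, and putative odorant-binding protein A10 at 51.0, 52.8 and 92.7 TPM against 56.5, 28.2 and 144 TPM. None of the 3 was called, their log2 differences were 0.03, 0.15 and −0.04, and other odorant-binding genes without a Swiss-Prot description are not covered. The odorant receptor coreceptor, the shared subunit of insect odorant receptors, was at 9.16, 16.6 and 16.1 TPM in females and 9.72, 23.3 and 16.0 TPM in males. Of 9 odorant, gustatory and ionotropic receptor functions 0 were called, against 5.3% of all functions tested. All 9 had positive differences, of 0.18 to 1.05, with a median of 0.54 against 0.07 over all functions. The largest was the sugar receptor Gr64e at 6.74, 4.38 and 7.78 TPM in females and 9.98, 18.7 and 13.9 TPM in males, without overlap (adjusted p = 0.0932, limma-trend). The summed level of the 9 was 32.4 to 56.3 TPM in females and 57.8 to 92.7 TPM in males.

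Sensory neuron membrane protein 2 belongs to the CD36 family of lipid-binding membrane proteins and in moths is found in the cells that support olfactory neurons. It was at 44.2, 30.9 and 67.0 TPM in females and 82.8, 151 and 176 TPM in males, with no overlap and a log2 difference of 1.51 ± 0.34 (SE, n = 3 per sex; adjusted p = 0.0193, limma-trend). The call was lost without female library 1, female library 2 or male library 2, and after quantile normalization. Sensory neuron membrane protein 1, its relative that in flies and moths serves pheromone detection, overlapped at 5.99, 12.8 and 12.4 TPM in females and 7.09, 21.5 and 11.6 TPM in males. Protein croquemort, a CD36 receptor with which fly blood cells take up dying cells, rose from 2.90, 0.34 and 2.47 TPM to 7.29, 9.45 and 10.7 TPM, a call lost without female library 2, male library 1 or male library 2. After quantile normalization 0 functions of the list were called. The abundant scavenger receptor class B member 1 was not called, at 69.0 to 114 TPM in females and 90.1 to 117 TPM in males.

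**Figure D4:**
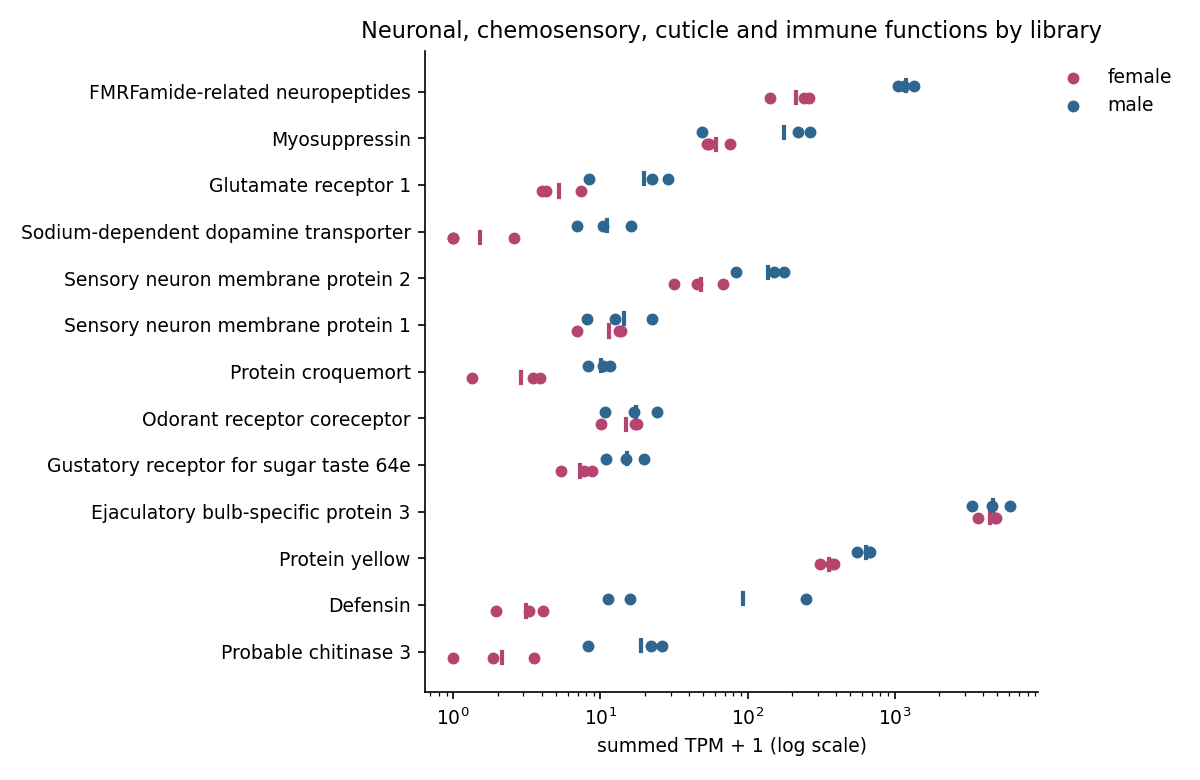
Summed TPM + 1 (x axis, log scale) of 13 neuronal, chemosensory, cuticle and immune functions in each of 3 female and 3 male libraries (points), with the mean of each sex as a short bar. FMRFamide-related neuropeptides, glutamate receptor 1, the dopamine transporter, sensory neuron membrane protein 2, croquemort, Gr64e, yellow, defensin and chitinase 3 do not overlap between the sexes, and defensin shows 1 male library far to the right of the others.

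Cuticle and immune functions gave a few calls, where 5.3% of all functions tested were called. Protein yellow, which in flies is needed for dark cuticle pigment, was at 369, 309 and 387 TPM in females and 683, 556 and 673 TPM in males. The groups did not overlap, but the log2 difference of 0.84 had an adjusted p of 0.0406 (limma-trend) and lost its call without any 1 of the 6 libraries. Probable chitinase 3, of the enzymes that digest chitin, was at 0.87, 0 and 2.55 TPM in females and 21.0, 7.30 and 25.1 TPM in males (log2 difference 3.16, adjusted p = 0.00449, limma-trend) and was the only 1 of 29 cuticle and chitin functions called. Larval cuticle protein A3A, the most abundant of that list, overlapped at 4124, 3414 and 4284 TPM against 1808, 1837 and 5352 TPM. Defensin, an antimicrobial peptide, was at 2.25, 0.96 and 3.10 TPM in females and 14.9, 250 and 10.2 TPM in males. Its log2 difference of 3.58 ± 0.87 (SE, n = 3 per sex; adjusted p = 0.0302, limma-trend) was the largest of the male side. Male library 2 was over 10 times the other males, and the call was lost without female library 1 or male library 1. It was also lost after quantile normalization, after rescaling, without the filter and without the trend. Its assembled gene was not called when tested alone (adjusted p = 0.0697, limma-trend over assembled genes). Of 22 immune functions, defensin was the 1 called, which at the share of 5.3% does not set the list apart.

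Many functions higher in males rested on matches outside animals or on genes annotated to the butterfly Papilio xuthus. Among the 115, 55 took over 50% of their TPM from assembled genes whose Swiss-Prot match was a fungus, protist, archaeon or virus, or whose second annotation named Papilio xuthus, against 1 of the 127 lower in males, probable guanine deaminase, and 168 of all 4567 functions tested. Non-animal matches carried 47 of the 115. Papilio xuthus annotation carried 31, of which 8 had an animal Swiss-Prot match, FMRFamide-related neuropeptides and cell division cycle protein 20 homolog among them, and that class was formed after its values had been seen. The 168 functions had a median log2 difference of 0.99, and the 4399 others 0.06. Without male library 1, 2 or 3, only 141, 144 and 142 of this class passed the filter. Their medians were 0.71, 0.58 and 0.62. Without female library 1, 2 or 3, 164, 165 and 165 passed, with medians of 1.02, 1.08 and 1.14. The median and counts of this class therefore depend in part on the filter, which some members passed only through the males. Male library 2 was the lowest of the males in 48 of the 55 functions, in 23 of the 60 other functions higher in males and in 24.5% of all functions tested. Rows with microsporidian matches, which the sums leave out, took 0.0818%, 0.0740% and 0.0971% of TPM in females and 0.401%, 0.191% and 0.430% in males, also with male library 2 lowest of the males. The exact two-sided permutation test over 3 against 3 gave p = 0.1, the smallest it can give. Whether the 55 functions and the microsporidian rows share a source was not tested. When all such matches were dropped too, 51 functions were higher in males and 125 lower.

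Ribosomal proteins showed this split within 1 list. The 14 descriptions with over 50% of their TPM on such matches had 11 higher in males and 0 lower, a median of 1.84, and summed to 124 to 155 TPM in females and 352 to 705 TPM in males. 60S ribosomal protein L5 of this class was at 22.6, 23.5 and 30.6 TPM in females and 124, 59.3 and 125 TPM in males. 40S ribosomal protein S14-A was at 26.1, 20.9 and 32.2 TPM against 131, 56.1 and 133 TPM, while S14a, the description of the same protein from animal matches, was at 691, 563 and 363 TPM against 174, 134 and 192 TPM. Ribosome biogenesis protein NSA2 likewise rose from 0.563 ± 0.515 to 6.73 ± 1.77 TPM on a non-animal match, while NSA2 homolog fell from 44.3 ± 9.49 to 18.1 ± 3.43 TPM on an animal match (SD, n = 3 each). The S14a and NSA2 homolog entries were named after their values were seen. 40S ribosomal protein S5a was the 1 ribosomal function higher in males without such matches, at 17.97, 16.1 and 18.9 TPM in females and 90.1, 44.4 and 73.3 TPM in males.

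The largest rises at low levels often had the same kind of match. Spindle assembly checkpoint kinase, which guards chromosome separation, was at 1.31, 1.32 and 0 TPM in females and 11.5, 5.37 and 18.2 TPM in males, and cell division cycle protein 20 homolog, its downstream target, at 1.52, 1.48 and 1.95 TPM against 13.7, 7.51 and 23.3 TPM. Both named Papilio xuthus. The RNA helicase DHX34, with the same second annotation, was listed at 0 in all female libraries and at 5.51, 10.4 and 3.76 TPM in males. Transcriptional activator spt7, Hit family protein 1, fatty acyl-CoA synthetase B and 50S ribosomal protein L23P named it as well. Large rises without such matches were cleavage stimulation factor subunit 2, which shapes mRNA ends (0, 1.5 and 1.98 TPM against 12.2, 5.64 and 16.6 TPM), histone deacetylase 1 (0.14, 0.14 and 0.16 TPM against 5.34, 2.40 and 8.42 TPM), and TBC1 domain family member 12 (0, 4.01 and 0 TPM against 5.82, 8.16 and 8.27 TPM). In the first 2, male library 2 was again the lowest of the males. The TBC1 call was kept in 5 of 17 alternatives and lost in 5 of the 6 fits that left out a library and under both other scalings. The histone deacetylase 1 call was lost without female library 1, the cleavage stimulation factor call without male library 1, and the spt7 call without either library. The proteasome and ubiquitin list had 5 of 148 higher and 1 lower, with a median of 0.05. Over all functions tested, 2.52% were higher and 2.78% lower, so the list does not stand out. After quantile normalization it had 1 higher and 0 lower. Its called members included the subunit rpn-6.1 (4.43, 6.06 and 6.71 TPM against 30.2, 14.3 and 30.0 TPM) and the deubiquitinase OTUB1 (1.32, 2.66 and 6.19 TPM against 20.4, 9.51 and 26.04 TPM). The OTUB1 call was lost without female library 1 or male library 1 and after quantile normalization, and the rpn-6.1 call was kept in these fits.

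Several abundant or often studied groups gave few or 0 calls, where 5.3% of all functions tested were called. At that share, a short list with 0 called does not stand out. Of 70 oxidative phosphorylation functions 0 were called by limma-trend, and 4 had a positive difference. Their sum was 59932, 63185 and 67676 TPM in females and 54451, 41691 and 39229 TPM in males, without overlap, with a median of −0.49 that became −0.08 after quantile normalization. Redox enzymes had 2 of 22 lower, among them mitochondrial superoxide dismutase [Mn] at 204, 168 and 184 TPM against 118, 90.7 and 87.5 TPM. Both calls were lost in 4 of the 6 fits that left out a library, and 0 redox enzymes were lower after rescaling. The lists of glutathione S-transferases (8 tested), UDP-glycosyltransferases (16), carboxylesterases (13), ABC transporters (17), juvenile hormone and takeout (6), ecdysone (9), phototransduction (9), cilium (35), testis (7) and sex determination (3) had 0 called. Their medians ran from −0.29 to 0.50. The sex determination gene fruitless was at 12.4, 19.6 and 17.7 TPM in females and 30.0, 18.4 and 10.7 TPM in males, and transformer-2 homolog beta at 15.3, 25.1 and 27.2 TPM against 32.2, 24.3 and 21.0 TPM. After rescaling, the medians of the phototransduction, redox, glutathione S-transferase, cytochrome P450, mitochondrial ribosomal, translation factor, chaperone, protease, ovary, secretory and pigment enzyme lists turned from negative to positive. After quantile normalization those of the glutathione S-transferase, cytochrome P450 and pigment enzyme lists did so, and those of the lipid, proteasome and cilium lists turned negative.

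**Figure D5:**
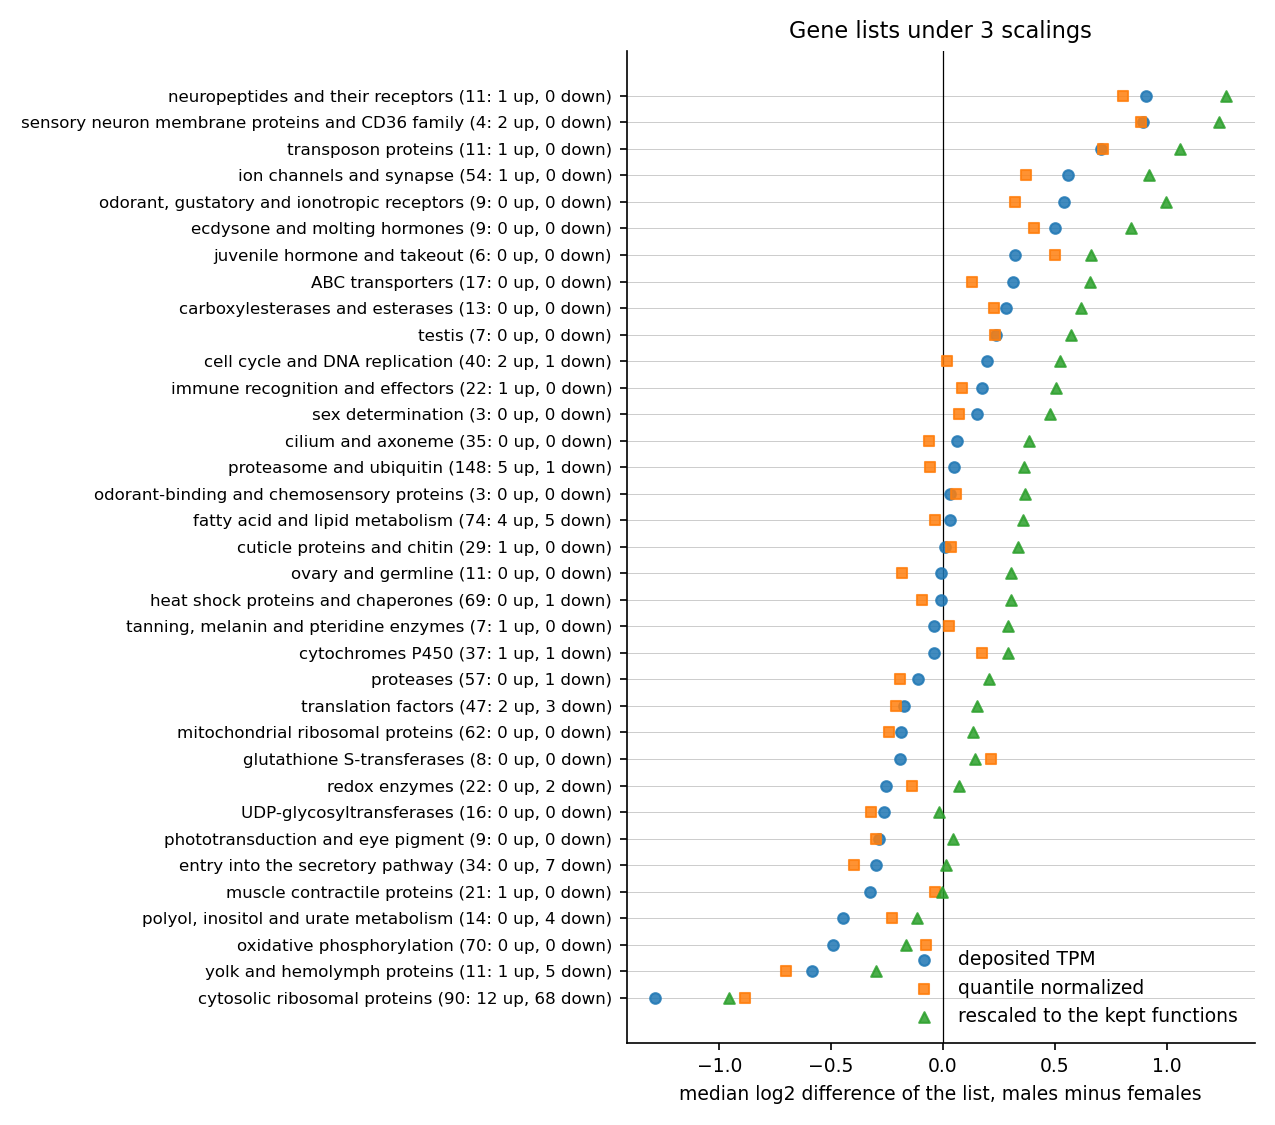
Median log2 difference (males minus females) of each of 35 gene lists (rows) on the deposited TPM, after quantile normalization and after rescaling to an equal total of the functions; row labels give the number tested and the numbers called higher (up) and lower (down) in males. Cytosolic ribosomal proteins lie furthest to the left at −1.29 and neuropeptides with their receptors furthest to the right at 0.91, and rescaling moves most lists to the right.

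None of the 10 functions of highest level was called, which at the share of 5.3% over all functions tested does not set them apart. They included muscle actins, myosin regulatory light chain 2 (7944, 8675 and 10624 TPM in females, 7307, 4799 and 5791 TPM in males), glutathione S-transferase 1 isoform D (6759, 8024 and 7052 TPM against 6423, 6341 and 5664 TPM) and the lipid-binding subunit of ATP synthase (5597, 5715 and 6776 TPM against 5337, 3440 and 4160 TPM).

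The sums were also compared with the assembled genes behind them. Of 8237 assembled genes tested alone, 329 (3.99%) were called by limma-trend, 126 higher and 203 lower in males. Of the 242 called functions, 183 had a called gene of the same direction and 59 had no called gene, and 58 functions that were not called held a called gene. In 18 functions, called genes pointed in both directions. Protein takeout, a family that binds juvenile hormone or other small lipids, was the clearest case. Its sum was 244, 242 and 279 TPM in females and 297, 261 and 256 TPM in males, and the log2 difference was 0.09. Within it, 1 gene rose from 2.18 ± 1.71 to 74.1 ± 21.6 TPM and 2 fell, from 50.5 ± 3.69 to 12.5 ± 7.96 TPM and from 21.3 ± 0.960 to 4.28 ± 3.77 TPM (SD, n = 3 each). In 40S ribosomal protein S29, the 2 abundant genes fell by 1.60 and 1.47 on the log2 scale and 2 scarcer ones rose by 1.77 and 2.70. Ribosomal proteins L22, L31, L35a, L36, L37a, S2, S11 and S16 also held called genes of both directions. In each of them the most abundant gene had a negative difference and the rising genes were scarcer. The called rising genes of L31, L35a, L37a and S16 had non-animal Swiss-Prot matches, and those of L22, L36, S2 and S11 animal ones. Whether the rising genes are thrips genes was not tested.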

How the data were processed

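RNA-seq of antennae gave 6 F. occidentalis libraries, 3 per sex. The authors deposited 1 table in TPM for an assembly of both species, with Swiss-Prot and other annotation text. The submitters' processing notes name Salmon, FastQC and cutadapt without versions; the assembler is not given in the sources used here. TPM was inferred from Salmon and the column totals. Column names gave the sample of every value column (0 unmatched). Rows were summed by the description before the organism tag, and match organisms were classed by hand. Because the unit is TPM, limma-trend (limma 3.58.1, R 4.3.3) was fitted to log2(summed TPM + 1) without covariates, with a summed TPM of at least 1 in 3 libraries and Benjamini-Hochberg adjustment at 0.05. The script was tested on simulated data. Tables and figures used Python 3.11.15 with matplotlib 3.10.9, scipy 1.17.1, numpy 2.4.6 and pandas 2.3.3.

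Functions were named as the 15 largest rises and 15 largest falls that passed the threshold without overlap and whose higher sex averaged 5 TPM or more (no uncharacterized or transposon proteins), the 2 highest and up to 5 called of smallest adjusted p of each of 35 lists, the 10 of highest mean, and up to 10 with called genes in both directions, those with most called genes first. Named outside this rule after their values were seen, besides those marked in the text, were 60S ribosomal proteins L5 and L29, 40S ribosomal proteins S5a and S14-A, Vitellogenin-6, apolipophorins, hexamerin, ferritin-2 heavy chain, xanthine dehydrogenase, allatotropin, diuretic hormone class 2, general odorant-binding protein 70, sensory neuron membrane protein 1 and the translocon-associated alpha subunit. Members, lists and tests were chosen with earlier results of these data known, and list wording was corrected after values were seen. No sequence was used, since 0 gene identifiers matched the RefSeq gene table. SD is the sample SD.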

Additional observations from a re-analysis of the deposited data

How the results depend on the processing

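The 242 called functions (115 higher, 127 lower in males) became 223 with a pseudocount of 0.1 and 191 without the filter (76 higher). They became 132 after quantile normalization (46 higher, 86 lower) and 329 after rescaling to the functions (257 higher, 72 lower). The count was 218 without the trend, 301 with no rows dropped (175 higher) and 242 with the highest assembled gene in place of the sum. With F. intonsa in the same fit it was 4 (1 higher, 3 lower). The 4 were cytochrome P450 4X1, DHX34, stearoyl-CoA desaturase 5 and Vitellogenin-3. Each of them stood at 0 to 0.16 TPM in every F. intonsa library, and that fit pools the wide spread of those libraries. Dropping other non-animal and Papilio xuthus matches too, an alternative chosen after seeing the data, left 176 (51 higher, 125 lower). Leaving out a library gave 119 (without female library 1) to 427 (without male library 3) in all, 51 to 272 higher and 68 to 173 lower, and 100 of the 242 were called in each such fit that tested them (32 higher, 68 lower). With the replicate number as a replicate block, 343 were called (177 higher, 166 lower), 235 of them among the 242; same-numbered samples of the sexes did not deviate together (correlations −0.01, 0.05 and −0.06), so the number is not taken as a pairing. Lists with a called member numbered 20, and 16 to 22 under other scalings. Of the named functions, 0 reversed direction in a called fit. The cause of these shifts was not tested. Without read numbers, counting error at low TPM cannot be separated from other spread, and 3 libraries per sex limit precision.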

Other observations

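Female F. intonsa antennae, not compared here because their 3 libraries differ widely from each other, gave these values for the same functions. The vitellogenin descriptions summed to 29.3, 963 and 0.62 TPM in libraries 1, 2 and 3. FMRFamide-related neuropeptides were at 13.5, 467 and 0.09 TPM, and defensin at 75.7, 7968 and 2.94 TPM. Stearoyl-CoA desaturase 5 was at 0, 0.13 and 0 TPM, and OHCU decarboxylase at 0.09, 41.4 and 0 TPM. A value of 0 means only that the gene is listed at 0 in an assembly shared by the species.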
